A study of Mus musculus with 8 samples.

Results

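The 34 genes described here code for the cell death machinery: the BCL2 family, initiator and executioner caspases, the apoptosome, the inhibitor of apoptosis (IAP) proteins, and the death receptors with their adaptors. Members were taken by symbol, through the NCBI gene ID of each row, and make up 34 of the 41591 gene IDs in the count tables. RNA sequencing was done on whole ovaries of 8 female C57BL/6 mice. The 4 DKO mice have a conditional double knockout of Insr and Igf1r, the genes of the receptors for insulin and for IGF1 (an insulin-like growth factor). The 4 Control mice are littermates labelled wild-type and positive for Pgr-Cre, a Cre recombinase under the progesterone receptor gene. Mice of both groups were about 3 weeks old, were given 4 IU of eCG (equine chorionic gonadotropin, which makes follicles grow) and, 48 h later, 5 IU of hCG (human chorionic gonadotropin, which triggers ovulation). Ovaries were removed 12 h after hCG. The labels name Cre for the Control mice alone. Many cell types of the ovary do not make the progesterone receptor, so receptor loss cannot be taken as uniform across the tissue. One comparison follows from this design, DKO against Control.

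Apoptosis is started along an extrinsic route, in which ligands of the tumour necrosis factor family bind death receptors and recruit caspase-8, or an intrinsic route, in which BCL2 family proteins open the outer mitochondrial membrane. In the intrinsic route BH3-only proteins relay stress signals, pro-survival members such as BCL2 and MCL1 hold BAX and BAK in check, and released cytochrome c builds the apoptosome that activates caspase-9. In the ovary these genes are known for the death of granulosa cells in follicles that do not ovulate and for the regression of the corpus luteum. Insulin and IGF1 receptors are known survival receptors, acting through the kinase AKT, which phosphorylates BAD and keeps FOXO transcription factors out of the nucleus.

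The libraries held 33145056 to 39257648 counts assigned to genes. Of the targeted genes, Insr had a log2 fold change of -0.30 ± 0.11 (SE) in DKO over Control and Igf1r one of -0.14 ± 0.12, without passing the test (edgeR adjusted p = 0.226 and 0.639). Whole-gene counts cannot separate a deleted exon, so they check the genotype labels weakly. Pgr was at 1.61 ± 0.537 CPM (counts scaled to a common library size) in DKO and 4.86 ± 1.75 CPM in Control (SD, n = 4 each). Oocyte, granulosa and luteal markers were detected in all 8 libraries. Sample titles carry a number, and the libraries were split by it into a low run (DKO 1, DKO 2 and Control 1) and a high run (DKO 3, DKO 4 and Control 2 to 4). The cut was chosen here, and all values given by run rest on it. The numbers of the high run lie close together. In the low run those of DKO 1 and DKO 2 are adjacent, but that of Control 1 is well below them. The low run is therefore not a close set. What the numbers stand for is not given in the sources used here. DKO 2 and Control 1 also held the most oviduct marker counts of their groups, 937.5 and 1374 CPM over 4 markers. The sum was 165 to 279.5 CPM in the other DKO libraries and 216 to 244 CPM in the other Control libraries. Most of it there was Tubb4b, at 160 to 276 CPM over all 8 libraries. Ovgp1 was at 724 CPM in DKO 2 and 1147 CPM in Control 1. In the other libraries Ovgp1 was at 2.51 to 2.90 CPM in DKO and 4.04 to 23.8 CPM in Control.

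None of the apoptosis genes passed the test between DKO and Control. Of the 34 members, 33 had enough counts to be tested, and 0 of these had an adjusted p under 0.05 in edgeR's quasi-likelihood test over all 16870 genes. The share of all genes called was 1.26%, with 0.759% higher and 0.498% lower in DKO. At an unadjusted p under 0.05 there were 5 of 33 members, or 15.2%, next to 15.4% of all genes. Of these 5, 2 were higher in DKO (Tnfrsf10b and Clu), where 8.43% of all genes were. The other 3 were lower (Casp6, Birc3 and Bok), where 6.98% of all genes were. The 4 DKO libraries lay entirely above or entirely below the 4 Control libraries in 4 members, or 12.1%, next to 9.24% of all genes. Of the 33 tested, 14 log2 fold changes were above 0 and 19 below, with a median of -0.04, next to -0.02 over all genes. In each of these summaries the members stood close to the genes at large.

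**Figure D1:**
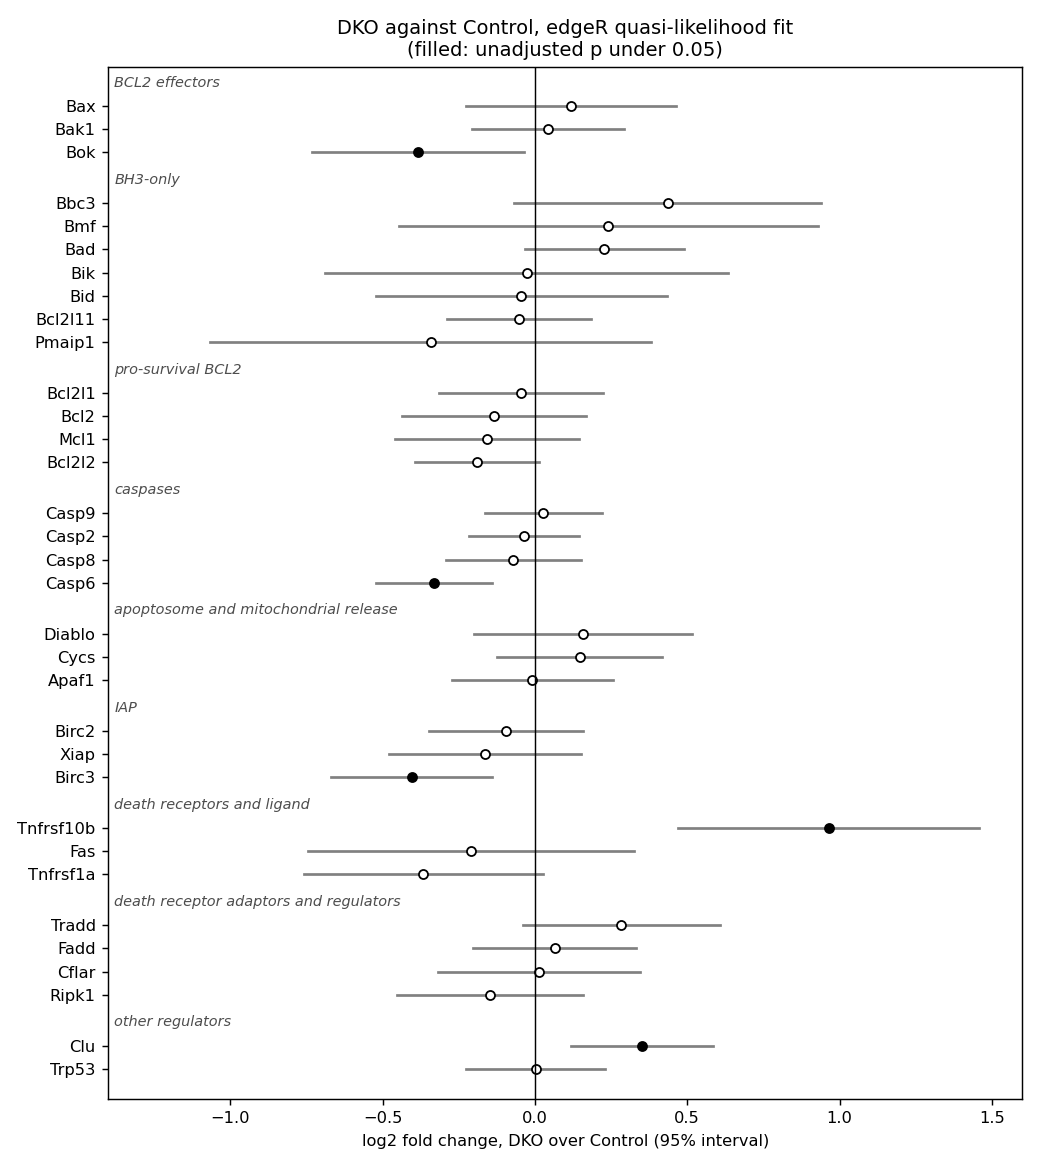
Log2 fold change of the 33 tested apoptosis genes, DKO over Control, from edgeR's quasi-likelihood fit, grouped by role; points are estimates and lines 95% intervals, and filled points had an unadjusted p under 0.05. Most intervals cross 0; Tnfrsf10b stands farthest to the right at 0.96, and Birc3 farthest to the left at -0.40.

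The intervals around the fold changes were mostly narrow. In 31 of 33 members the 95% interval lay within a 2-fold change in either direction, and in 23 of 33 within a 1.5-fold change. The exceptions to the 2-fold limit were Tnfrsf10b, with an interval from 0.47 to 1.46 log2 units, and Pmaip1, with an interval from -1.07 to 0.38. In 8 members the interval lay within 0.32 log2 units of 0. Where an interval spans 0, differences of the sizes inside it are not excluded with 4 ovaries per group. No member is shown here to be the same in DKO and Control.

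Expression levels spanned a wide range. As RPKM (CPM divided by exon length in kilobases), Clu was the highest at 470.6 ± 33.7 in DKO and 369 ± 21.4 in Control, followed by the receptor gene Tnfrsf1a at 98.4 ± 22.8 in DKO and 127 ± 18.8 in Control (SD, n = 4 each). By the mean over all 8 libraries, next came the survival gene Mcl1, at 79.0 ± 11.4 RPKM in DKO and 88.1 ± 10.7 in Control, Casp6, at 49.7 ± 2.57 and 62.6 ± 3.61, and Trp53, at 51.4 ± 3.36 and 51.3 ± 5.74. Casp6 and Trp53 lay within each other's spread in DKO, and Casp6 was the higher of the pair in Control. Diablo followed, at 52.7 ± 11.5 RPKM in DKO, which is above both, and 47.3 ± 6.52 in Control. At the low end, the BH3-only genes Bik, Bid and Pmaip1 were between 0.527 and 1.13 RPKM in either group. Lowest of all was the ligand gene Fasl, at 0.0524 ± 0.0218 RPKM in DKO and 0.0476 ± 0.0253 in Control.

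**Figure D2:**
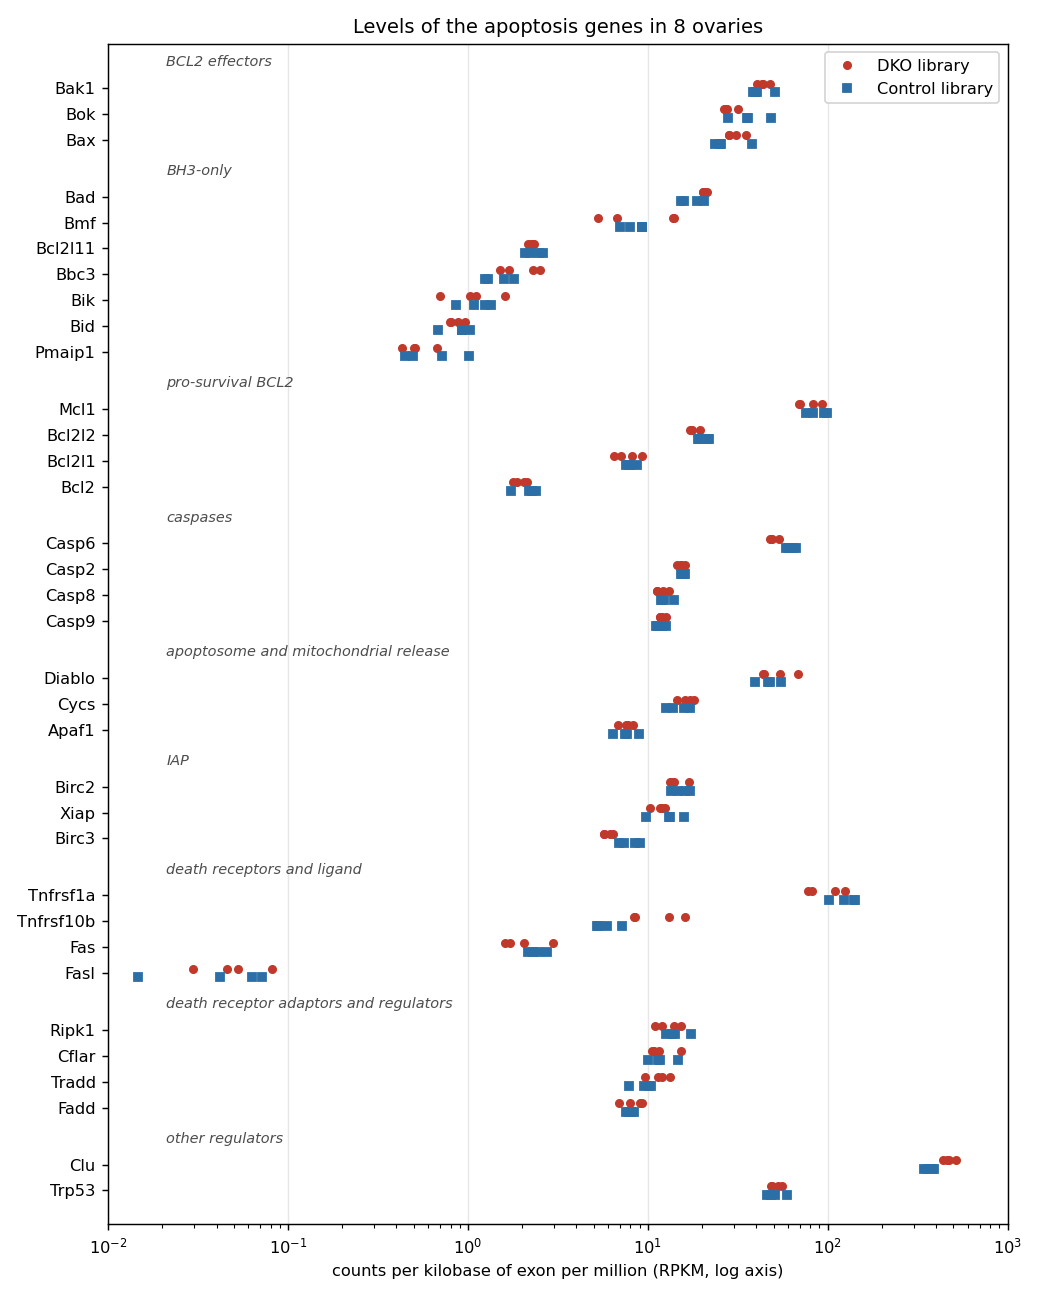
Level of each of the 34 genes in every library, as RPKM on a log axis, grouped by role; red circles are DKO libraries and blue squares Control libraries. Clu is the highest and Fasl the lowest, and the groups overlap in all genes except Tnfrsf10b, Casp6, Birc3 and Clu.

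Among death receptors, Tnfrsf10b had the largest difference of all members. It codes for the mouse death receptor for the ligand TRAIL and spans chr14:69767472-69784411 (GRCm38.p5). Tnfrsf10b was at 26.6, 27.0, 41.9 and 51.0 CPM in DKO libraries 1 to 4, against 16.8, 18.9, 16.5 and 22.9 CPM in Control libraries 1 to 4. All DKO libraries lay above all Control libraries, and DKO 3 and DKO 4 lay 1.73-fold above DKO 1 and DKO 2. The mean was 1.95-fold higher in DKO, with a log2 fold change of 0.96 ± 0.22 (SE). It did not pass edgeR's test over all genes (adjusted p = 0.0708). The exact two-sided permutation p was 0.0286, which is the smallest that 4 against 4 libraries can give.

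The call on Tnfrsf10b depended on the fit. With the 2 runs of title numbers as a block it was called higher in DKO (log2 fold change 1.05, edgeR adjusted p = 0.0117), and it was the 1 member called, next to 3.12% of all genes. Within the high run alone, 2 DKO against 3 Control libraries, it was again the 1 member called (1.28, edgeR adjusted p = 0.0256), next to 0.982% of all genes. DESeq2 called it too (adjusted p = 0.00239). Leaving out any 1 library with no block gave log2 fold changes from 0.76 to 1.09 and adjusted p values from 0.0765 to 0.213.

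Luteal and endothelial markers lay in the same direction as Tnfrsf10b. Of 5 luteal markers 4 had log2 fold changes above 0 and 2 were called higher in DKO (Hsd3b1 and Ptgfr), with none at 0 counts. Their summed level was 13640 to 18070 CPM in DKO libraries, highest in DKO 3 and DKO 4, and 7124 to 13080 CPM in Control libraries. That sum includes Star, the marker with no group difference (log2 fold change -0.007). Star was at 821, 907, 3267 and 3396 CPM in DKO libraries 1 to 4. All 6 endothelial markers were above 0, with none called and none at 0 counts, and summed to 442, 525, 605.5 and 640.0 CPM in DKO libraries 1 to 4 and 427 to 515 CPM in Control libraries. Of 7 granulosa markers 5 were above 0 and 2 below, with none called. In whole ovaries, more cells of a type and more RNA per cell cannot be told apart. The part of luteal, endothelial or granulosa cells in the Tnfrsf10b difference was not tested.

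Tnfrsf1a, which codes for the main receptor for tumour necrosis factor, was at 166.5, 177, 235 and 269.8 CPM in DKO libraries 1 to 4, against 219, 267, 306 and 302 CPM in Control libraries 1 to 4. DKO 1 and DKO 2 lay below all Control libraries, and DKO 3 and DKO 4 lay within the Control range. The log2 fold change was -0.37 ± 0.18 (SE; edgeR adjusted p = 0.363), and -0.19 within the high run. Fas, the receptor for Fas ligand, was at 4.09 ± 1.21 CPM in DKO and 4.73 ± 0.490 CPM in Control (SD, n = 4 each), with a log2 fold change of -0.21 ± 0.24 (SE). Fasl, its ligand and mainly a product of T and natural killer cells, was below the limit for testing, at 0.0574 to 0.158 CPM in DKO libraries and 0.0283 to 0.138 CPM in Control libraries. T and natural killer cell markers were low as well, with 7.36 to 11.9 CPM over 12 markers in DKO libraries and 6.10 to 11.0 CPM in Control libraries.

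The adaptors that carry the signal from death receptors did not differ beyond the spread between libraries. Tradd, the adaptor of the tumour necrosis factor receptor, had the smallest p of this group. Its CPM were 18.3, 16.7, 15.7 and 13.3 in DKO libraries 1 to 4, against 14.0, 13.2, 14.5 and 10.9 in Control libraries 1 to 4. The groups overlapped through DKO 4, and the log2 fold change was 0.28 ± 0.15 (SE; edgeR adjusted p = 0.395). Ripk1, a kinase at the branch point between survival and death downstream of the same receptor, was the most abundant of the group per kilobase. It was at 56.8, 61.3, 72.2 and 78.4 CPM in DKO libraries 1 to 4, against 73.3, 69.7, 64.8 and 89.8 CPM in Control libraries 1 to 4. The groups overlapped, with a log2 fold change of -0.15 ± 0.14 (SE). Fadd, which binds caspase-8 to the receptors, had a log2 fold change of 0.06 ± 0.12. For Cflar, a caspase-like protein that blocks that step, it was 0.01 ± 0.15.

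The pore-forming effectors of the BCL2 family gave 2 log2 fold changes above 0 and 1 below. Bok, an effector that acts apart from BAX and BAK, was the lowest of them. Bok was at 49.7, 43.1, 42.6 and 41.3 CPM in DKO libraries 1 to 4, against 55.4, 56.2, 75.4 and 43.3 CPM in Control libraries 1 to 4. Of the Control libraries, Control 4 lay within the DKO range and Control 3 stood well above the rest. The log2 fold change was -0.38 ± 0.16 (SE; edgeR adjusted p = 0.273), with an exact permutation p of 0.0571. Without Control 3 it was -0.23, and that library alone moved the value more than 1.5-fold.

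Bak1, which codes for BAK, was the most abundant effector per kilobase. It had 106.5, 96.1, 97.0 and 90.1 CPM in DKO libraries 1 to 4, against 89.8, 85.7, 114 and 88.3 CPM in Control libraries 1 to 4. Control 3 was the highest of all 8 libraries, and the other Control libraries lay below all DKO libraries. Bak1 had a log2 fold change of 0.04 ± 0.11 (SE). Bax followed the same pattern, with 77.8, 68.5, 62.6 and 62.7 CPM in DKO libraries 1 to 4, against 56.3, 57.1, 84.1 and 52.8 CPM in Control libraries 1 to 4. Its log2 fold change of 0.12 ± 0.15 (SE; edgeR adjusted p = 0.779) became 0.29 without Control 3 (adjusted p = 0.139), 0.05 without DKO 1, 0.04 without Control 4 and -0.03 within the high run. In all 3 effectors Control 3 was the highest Control library.

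Among the 7 BH3-only genes 3 log2 fold changes were above 0 and 4 below, with a median of -0.03. Bad, whose protein is a direct target of AKT, had both the smallest p and the highest level per kilobase. Its CPM were 32.6, 31.4, 30.7 and 30.9 in DKO libraries 1 to 4, against 28.6, 23.2, 31.3 and 24.1 in Control libraries 1 to 4. The DKO libraries lay close together, and only Control 3 reached their range. Bad had a log2 fold change of 0.23 ± 0.12 (SE; edgeR adjusted p = 0.397), with an exact permutation p of 0.0857.

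FOXO factors, which insulin and IGF1 signalling holds inactive, are known to activate Bcl2l11 and Bbc3. These genes code for the BH3-only proteins BIM and PUMA, and their upstream sequences are shown because they were the 2 members with a FOXO motif in a promoter window. RefSeq windows from 250 bases before to 50 after an annotated start (GRCm38.p6) were found for 29 of the 34 members, 41 windows in all. The motif GTAAACA was searched on both strands, as GTAAACA or TGTTTAC, and neither match overlapped one of the other motifs searched. It occurred in 2 of the 41 windows and in 3.65% of all 32851 windows. The 250 bases before the start are printed 5′ to 3′ on the plus strand, with the match in capitals. The first lies at chr2:128125788-128126037, before the first exon of Bcl2l11. The second lies at chr7:16310011-16310260, within the span of Bbc3 before 1 of its 3 annotated starts.
Bcl2l11: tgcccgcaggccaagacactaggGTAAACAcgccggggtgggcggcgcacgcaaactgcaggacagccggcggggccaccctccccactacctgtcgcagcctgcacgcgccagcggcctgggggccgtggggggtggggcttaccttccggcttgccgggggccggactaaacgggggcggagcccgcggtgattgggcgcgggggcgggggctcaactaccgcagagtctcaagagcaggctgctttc
Bbc3: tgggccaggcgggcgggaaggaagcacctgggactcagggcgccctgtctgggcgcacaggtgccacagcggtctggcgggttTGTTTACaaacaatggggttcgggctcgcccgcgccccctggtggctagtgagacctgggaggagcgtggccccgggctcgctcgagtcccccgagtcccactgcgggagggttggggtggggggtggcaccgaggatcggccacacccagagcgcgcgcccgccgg

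In Bcl2l11 the match begins 227 bases before the start, and in Bbc3 it lies nearer to the start and on the opposite strand. A match describes these letters and does not show that a factor binds there. Bcl2l11 was at 25.2, 25.9, 24.1 and 26.0 CPM in DKO libraries 1 to 4, against 29.1, 27.7, 23.4 and 24.8 CPM in Control libraries 1 to 4. The DKO libraries lay inside the Control range, and the log2 fold change was -0.05 ± 0.11 (SE; edgeR adjusted p = 0.863). Bbc3 was at 9.27, 8.48, 6.20 and 5.54 CPM in DKO libraries 1 to 4, against 5.86, 4.55, 6.66 and 4.73 CPM in Control libraries 1 to 4. DKO 1 and DKO 2 lay above all Control libraries, and DKO 3 and DKO 4 lay within the Control range. Its log2 fold change of 0.44 ± 0.23 (SE; edgeR adjusted p = 0.401) was 0.16 within the high run alone. A kappaB-like motif, GGGNNTTTCC on either strand, was in 4 of the 41 windows (Bbc3, Bcl2l1, Mcl1 and Trp53) and in 1.63% of all windows. The cyclic AMP response element TGACGTCA was in 2 of the 41 windows (Birc2 and Cycs) and in 1.79% of all windows. The pattern CATGNNNNNNNNNNCATG was in 0 of the 41 windows and in 0.566% of all windows. It covers a single spacing and a single letter form of a p53 pair. Other spacings and forms were not searched, so no absence of p53 sites is read from it.

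Bmf, a BH3-only gene whose protein is held on the cytoskeleton, divided the DKO group. It was at 74.7, 74.0, 28.3 and 36.3 CPM in DKO libraries 1 to 4, against 49.96, 37.9, 49.8 and 42.8 CPM in Control libraries 1 to 4. DKO 1 and DKO 2 lay above, and DKO 3 and DKO 4 below, every Control library, with means 2.30-fold apart between the pairs. The log2 fold change was 0.24 ± 0.30 (SE; edgeR adjusted p = 0.774) over all libraries and -0.41 within the high run. On the scale of log2(mean CPM + 0.5), the pairs DKO 1 and 2 and DKO 3 and 4 differed more than 1.5-fold in Bmf and Tnfrsf10b, 2 of 33 members or 6.06%, next to 14.4% of all genes. Bbc3 was close to that limit, with a ratio of mean CPM of 1.51 between the pairs. The remaining BH3-only genes were low. Pmaip1, which codes for NOXA, had a log2 fold change of -0.34 ± 0.32, with the sign turned (0.11) within the high run. Bik had -0.03 ± 0.30. For Bid, which caspase-8 cleaves to link the extrinsic to the intrinsic route, it was -0.05 ± 0.21. Bid is also annotated on an alternate sequence, so its count is uncertain.

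**Figure D3:**
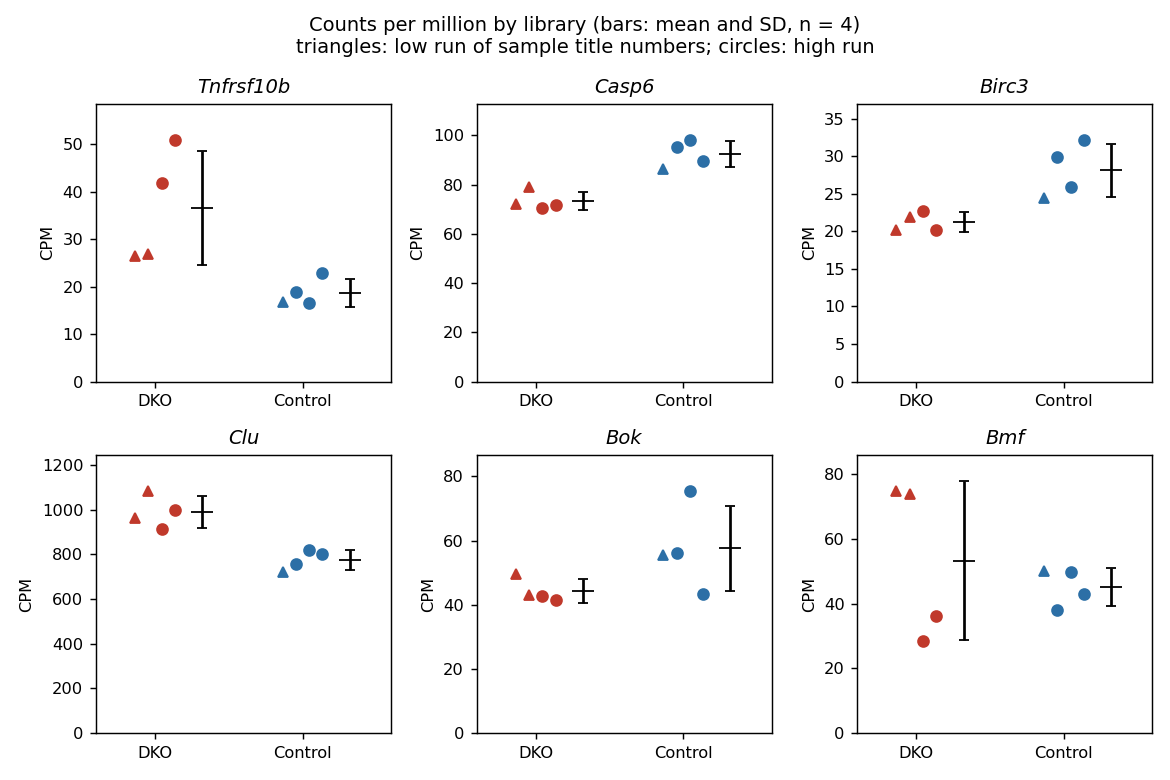
CPM in each library for Tnfrsf10b, Casp6, Birc3, Clu, Bok and Bmf, with DKO libraries in red and Control libraries in blue; bars give the mean and SD of 4 libraries, and triangles mark the low run of title numbers. The groups do not overlap in Tnfrsf10b, Casp6, Birc3 and Clu, while Bmf is near 74 in the DKO triangles and at 28.3 and 36.3 in the DKO circles.

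All 4 pro-survival BCL2 genes had log2 fold changes below 0, and none passed the test. Bcl2l2, which codes for BCL-W, had the smallest p. Its CPM were 109.7, 124, 111 and 112 in DKO libraries 1 to 4, against 123, 139.5, 138 and 120.2 in Control libraries 1 to 4. DKO 2 lay above Control 1 and Control 4, and the other DKO libraries lay below every Control library. The log2 fold change was -0.19 ± 0.09 (SE; edgeR adjusted p = 0.365), with an exact permutation p of 0.0857. Mcl1, the most abundant of the 4 per kilobase and known for the short life of its protein, was at 265, 265, 317 and 354 CPM in DKO libraries 1 to 4, against 288, 314, 363 and 374 CPM in Control libraries 1 to 4. The groups overlapped, and the log2 fold change was -0.16 ± 0.14 (SE; edgeR adjusted p = 0.640). Bcl2 had a log2 fold change of -0.13 ± 0.14. Bcl2l1, which codes for BCL-XL, had -0.05 ± 0.12 and lay just above 0 without DKO 3, DKO 4 or Control 1.

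Averaged over the 4 pro-survival genes as log2(CPM + 0.5), the level was 6.23, 6.21, 6.23 and 6.26 in DKO libraries 1 to 4, against 6.33, 6.39, 6.34 and 6.40 in Control libraries 1 to 4. The groups did not overlap, and the means were 6.23 ± 0.0197 in DKO and 6.37 ± 0.0335 in Control (SD, n = 4 each). The difference of -0.13 log2 units was small and stayed between -0.11 and -0.14 under 13 other scalings and library sets. No overlap appeared in any of the 13. Leaving libraries out of groups that do not overlap can hardly make them overlap, so only the 3 other scalings could have shown it. The difference is a description of chosen genes and has no p. Summed as CPM, the same 4 genes were at 464.7 to 534.5 in DKO libraries and 497.9 to 577.6 in Control libraries, and these ranges overlapped. Each of the 4 genes also overlapped between the groups when taken alone. Over the 10 pro-death genes, effectors and BH3-only together, the mean was 4.10 ± 0.144 in DKO and 4.08 ± 0.166 in Control, and the groups overlapped. Here DKO 1, DKO 2, Control 1 and Control 3 stood at 4.19 to 4.25, and the other 4 libraries at 3.93 to 3.99. The pro-survival mean minus the pro-death mean was 2.01, 1.99, 2.24 and 2.30 in DKO libraries 1 to 4, against 2.15, 2.46, 2.09 and 2.46 in Control libraries 1 to 4. These ranges overlapped, also in all 13 alternatives. The ratio of Bax to Bcl2 in CPM was 5.66, 5.24, 4.19 and 4.02 in DKO libraries 1 to 4, against 3.49, 3.43, 6.62 and 3.03 in Control libraries 1 to 4. Control 3 was the highest of all 8 libraries, and the other Control libraries lay below every DKO library.

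**Figure D4:**
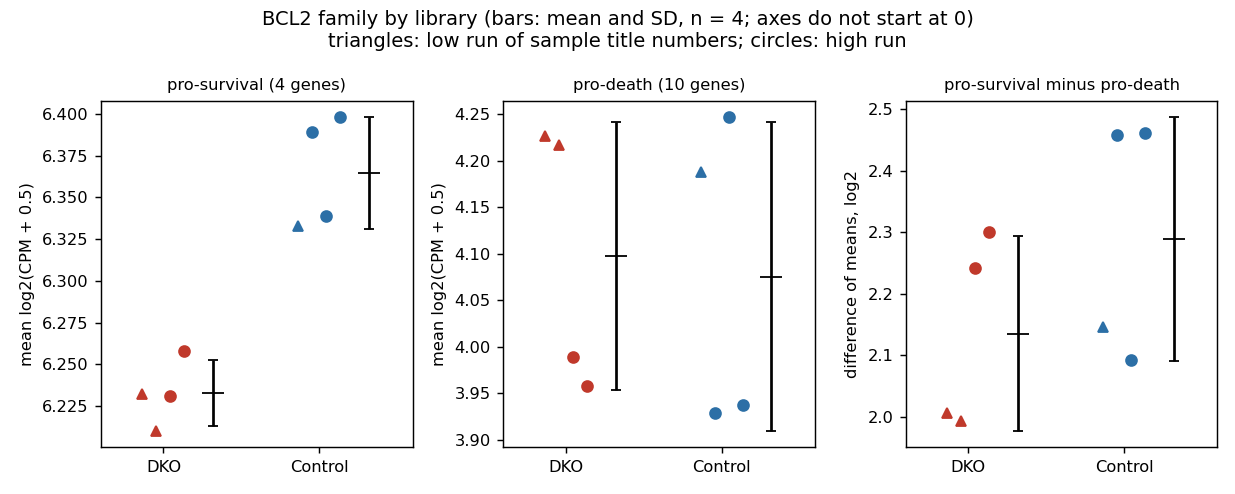
Mean log2(CPM + 0.5) per library of the 4 pro-survival BCL2 genes, of the 10 pro-death BCL2 genes, and their difference; bars give mean and SD of 4 libraries, axes do not start at 0, and triangles mark the low run of title numbers. DKO libraries lie below Control libraries on the left (6.23 and 6.37 on average), and the groups overlap in the other panels.

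Of the 3 genes of mitochondrial release and the apoptosome, 2 were above 0 and none passed the test. Cycs, which codes for somatic cytochrome c, was at 48.9, 44.4, 52.3 and 55.6 CPM in DKO libraries 1 to 4, against 42.0, 38.7, 52.5 and 48.4 CPM in Control libraries 1 to 4. The groups overlapped, with a log2 fold change of 0.15 ± 0.12 (SE). Cycs has near-identical processed pseudogenes that can share its reads, so the count is uncertain. Diablo, whose protein SMAC is released with cytochrome c and relieves caspases of IAP inhibition, was at 85.7, 85.1, 133 and 105.5 CPM in DKO libraries 1 to 4, against 76.1, 92.9, 107 and 90.5 CPM in Control libraries 1 to 4. DKO 3 was the highest library and the groups overlapped (log2 fold change 0.16 ± 0.16, SE). Apaf1, the scaffold of the apoptosome, had -0.01 ± 0.12.

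Among caspases Casp6 was lower in DKO in every library, and the initiators were close to 0. Casp6 codes for an executioner caspase and spans chr3:129901415-129914112 (GRCm38.p5). It was at 72.3, 78.9, 70.6 and 71.6 CPM in DKO libraries 1 to 4, against 86.4, 95.1, 98.1 and 89.5 CPM in Control libraries 1 to 4. The groups did not overlap and were tight, at 73.4 ± 3.78 CPM in DKO and 92.3 ± 5.32 CPM in Control (SD, n = 4 each). The log2 fold change was -0.33 ± 0.09 (SE; edgeR adjusted p = 0.0995), with an exact permutation p of 0.0286. The initiator genes Casp2, Casp8 and Casp9 had log2 fold changes of -0.04 ± 0.08, -0.07 ± 0.10 and 0.03 ± 0.09. Their 95% intervals all lay within 0.32 log2 units of 0.

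All 3 IAP genes had log2 fold changes below 0, also under 3 other scalings. Birc3, which codes for cIAP2, a ubiquitin ligase of the tumour necrosis factor receptor complex, spans chr9:7848699-7873210 (GRCm38.p5). Its CPM were 20.2, 21.9, 22.7 and 20.2 in DKO libraries 1 to 4, against 24.4, 29.9, 26.0 and 32.2 in Control libraries 1 to 4. The groups did not overlap, and the log2 fold change was -0.40 ± 0.12 (SE; edgeR adjusted p = 0.137), with an exact permutation p of 0.0286. Birc2, its close relative cIAP1 and the most abundant IAP gene here per kilobase, was at 58.1, 70.5, 55.7 and 56.4 CPM in DKO libraries 1 to 4, against 71.4, 67.1, 56.6 and 61.9 CPM in Control libraries 1 to 4. DKO 2 stood apart from the other DKO libraries and lay inside the Control range (log2 fold change -0.09 ± 0.11, SE). Xiap, which inhibits caspases directly, had -0.16 ± 0.14.

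Neutrophil, smooth muscle and oocyte markers lay in the same direction as Birc3 and Casp6. Of 8 neutrophil markers 6 were tested, all 6 were below 0 and none passed the test. Their summed level was 2.89 to 5.21 CPM in DKO libraries and 7.15 to 30.4 CPM in Control libraries, and Ly6g, a defining marker, had 0 counts in all 4 DKO libraries and 8, 0, 6 and 0 counts in Control libraries 1 to 4. All 5 smooth muscle markers were below 0, with none called and none at 0 counts, and summed to 1430 to 2399 CPM in DKO libraries and 1874 to 3485 CPM in Control libraries. All 6 oocyte markers were below 0 with none called, and summed to 102 to 325.5 CPM in DKO libraries and 91.4 to 336 CPM in Control libraries. Most macrophage, theca and oviduct markers lay this way too, with none called. Of 7 macrophage markers 6 were below 0 and 1 above, and of 4 theca and 4 oviduct markers 3 each were below and 1 above. Among theca markers Gli1 was only at -0.0003, and their summed mean was higher in DKO, 205.5 CPM against 159.4 CPM in Control. Of 7 T and natural killer cell markers tested 3 were below 0 and 4 above. Most luteal, endothelial and granulosa markers were above 0. The part of any of these cells in the Birc3 and Casp6 differences was not tested.

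Of the 2 remaining members, Clu was higher in DKO in every library and Trp53 was not. Clu codes for clusterin, an extracellular chaperone, and spans chr14:65968483-65981548 (GRCm38.p5). It was at 961, 1082, 915 and 996 CPM in DKO libraries 1 to 4, against 722, 755, 820.3 and 802 CPM in Control libraries 1 to 4. The groups did not overlap, and the log2 fold change was 0.35 ± 0.10 (SE; edgeR adjusted p = 0.141), with an exact permutation p of 0.0286. The luteal and endothelial markers given with Tnfrsf10b, and most of the granulosa markers, lay in this direction too, and their part was not tested. Trp53, the gene of the stress response factor p53, was at 117 ± 7.65 CPM in DKO and 117 ± 13.1 CPM in Control (SD, n = 4 each), with a log2 fold change of 0.00 ± 0.10 (SE).

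Other tests called some of these genes at effects of like size. DESeq2 called 4 of the 33 members, or 12.1%, next to 6.56% of all genes. They were Tnfrsf10b and Clu, higher in DKO, and Casp6 and Birc3, lower, with adjusted p values of 0.00239, 0.00311, 0.00274 and 0.0279. The voom method of limma with quality weights per library called the same 4 and Bad, which makes 5 of 33, or 15.2%, next to 9.79% of all genes. For Bad the log2 fold change was 0.36 with these weights (adjusted p = 0.0392). These tests used the same 8 libraries as edgeR and add no samples.

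Further genes of the pathway gave 1 call, next to 1.26% of all genes called and 0.498% called lower in DKO. Among 13 other BCL2 family genes 10 were tested and none passed, with a median of -0.11; the smallest p was that of Bcl2l14 (log2 fold change -1.22 ± 0.58, SE; edgeR adjusted p = 0.361), at 0.215 ± 0.126 CPM in DKO and 0.499 ± 0.345 CPM in Control. Among 18 other caspases and execution genes 17 were tested and 1 fell, Casp4, an inflammatory caspase (log2 fold change -1.65 ± 0.31, SE; edgeR adjusted p = 0.0420). It was at 2.60 ± 0.952 CPM in DKO and 8.14 ± 1.58 CPM in Control (SD, n = 4 each). The median of that list was -0.08. Among 19 other death ligand, receptor and adaptor genes 16 were tested and none passed, with 3 above 0, 13 below and a median of -0.10. Tnfrsf1b, the second receptor for tumour necrosis factor, had the smallest p of these (-0.41 ± 0.12, SE; edgeR adjusted p = 0.131), at 44.4 ± 3.60 CPM in DKO and 59.2 ± 8.06 CPM in Control. Tnf, Lta and Ltb are listed at 0 in all libraries, and each is annotated on 4 sequences, so no level is read from them. Among 15 p53 target genes, all tested, none passed, with 9 above 0, 6 below and a median of 0.04. Phlda3, which restrains AKT, had the smallest p (0.41 ± 0.12, SE; edgeR adjusted p = 0.139), at 25.4 ± 2.38 CPM in DKO and 19.2 ± 1.92 CPM in Control.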

How the data were processed

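The deposited tables hold raw counts per gene, made by the authors with featureCounts of Subread 1.5.2 over exons of GRCm38.p5 RefSeq genes with reverse-strand counting, per the file headers; the same tables give exon length. The submitters' processing notes also name bcl2fastq, Trimmomatic, STAR and edgeR. The 8 tables were joined on the NCBI gene ID, and symbols were matched for 40290 of 41591 IDs. The count test was edgeR 4.0.16 (R 4.3.3): TMM factors, filterByExpr, robust quasi-likelihood F-test, no covariate, Benjamini-Hochberg adjustment over 16870 genes, threshold 0.05. SE is the size of the log2 fold change over the square root of F. CPM carry TMM factors, and RPKM divide CPM by exon length. Single genes also had an exact two-sided permutation test over 70 assignments. Replicates are separate samples per the labels; nothing says more on how the tissue was collected, so p-values measure the spread between these samples. Within groups no 2 libraries agreed to within sampling noise (reduced chi-square of 25.1 or more).

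Members and lists were chosen with earlier results of these data known. Values in every library are given, by rule, for the member with the smallest p and the one with the highest RPKM in each role group; Bax, Bbc3, Bcl2l11 and Bmf, and the motifs, were chosen after values were seen. The alternatives were 3 other scalings, 2 filters, DESeq2 1.42.0, limma 3.58.1 voom with and without quality weights, non-robust dispersions, the replicate number as a block, the run of title numbers as a block or alone, and leaving out each library. A fit without Control 1 and DKO 2 was added after seeing the data. The fitting code was tested on simulated data.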

Additional observations from a re-analysis of the deposited data

Results flagged for a closer look

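In 74 groups of 4 libraries (each of the 34 members and the pro-survival mean, the pro-death mean and their difference, in DKO and in Control) the highest or lowest library was compared with the rest, and 4 stood apart by a gap above Dixon's critical value. Chance gives about 1 in 20. Bcl2l2 was at 123.7 CPM in DKO 2, above the other DKO libraries. Birc2 was at 70.46 CPM in DKO 2, also above the other DKO libraries. Bax was at 84.09 CPM in Control 3 and Bak1 at 114.4 CPM in Control 3, each above the other Control libraries. Of these libraries, DKO 2 also held the most oviduct marker counts of the DKO group, and Control 3 held the most neutrophil marker counts of all 8 (30.4 CPM). Their part in these values was not tested.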

How the results depend on the processing

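The number of genes called over all genes was 212, and 1107 with DESeq2, 1651 with quality weights, 526 with the title number runs as a block and 97 without Control 1 and DKO 2 (added after seeing the data). Leaving out 1 library gave 2 to 506, with 2, 9 and 27 without Control 2, DKO 3 and Control 4. Members called were 0, and 4 with DESeq2, 5 with quality weights, 1 with the title number runs as a block, 1 within the high run of title numbers and 0 in each fit that left out 1 library. Members with another sign, by more than 1 SE, were Bmf with the title number runs as a block (-0.082) and, within the high run, Bmf (-0.41), Pmaip1 (0.11), Fadd (-0.10), Ripk1 (0.0286) and Trp53 (-0.11). Of the other log2 fold changes of members, 667 stayed alike, 8 moved and 12 came to pass the threshold. The causes were not tested.

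The replicate numbers were not taken as pairs, since the labels give them no shared source and same-numbered libraries correlated at 0.156, -0.359, 0.312 and 0.468 for numbers 1 to 4. As a hint from the data, 3 of 4 DKO libraries correlated best with their own number. With the number as a replicate block, 743 genes and 1 member, Tnfrsf10b (adjusted p = 0.0245), were called. Groups of 4 limit what small changes can be seen, and the SE was widest for Pmaip1, Bmf and Bik (0.32, 0.30 and 0.30).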
